A study of Mus musculus with 2 samples.

Results

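The genes of folate, serine and nucleotide synthesis were examined in megakaryocyte-erythroid progenitors (MEP), bone marrow cells that give rise to red cells and platelets. The set held 32 of the 43346 annotated genes in the deposited tables. They were chosen by gene symbol for their role in these pathways and not by a cut on their values, though earlier results of these data were known. Serine made from glucose, or taken up, gives a carbon unit to tetrahydrofolate, a reaction that runs in the cytosol and in mitochondria with separate enzymes. The folate-bound units are used to build the purine ring and to make thymidylate, and in methionine synthesis. Purines are assembled stepwise on a ribose phosphate until inosine monophosphate (IMP), which is then turned into AMP or GMP, whereas pyrimidines are made as a free ring and reach uridine monophosphate (UMP) before CTP and the deoxynucleotides. Erythroid progenitors divide fast, and their dependence on folate is known from the anaemia of folate deficiency.

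The study measured total RNA above 200 bases in 2 libraries, each from 100 primary MEP of male C57BL/6J mice aged 5 to 6 weeks, with spike-in RNAs added. Both libraries belonged to 1 group with no treatment or genetic change named in the labels, so there was no contrast to test and every value below is a description. The labels gave separate biological replicate numbers and biosamples but 1 shared donor record. Replicate 1 held 30016974 expected counts, 74849 of them in the 32 genes, and replicate 2 held 51510347, with 144484 in the 32 genes. Each of the 32 had between 242 and 6795 expected counts in replicate 1 and between 363 and 12523 in replicate 2. Levels are given in TPM, transcripts per 1000000 transcripts, which is per length and so can be compared between genes of a library.

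The MEP label was set against marker genes. All 6 erythroid and progenitor markers (Gata1, Klf1, Gfi1b, Epor, Kit and Zfpm1) lay between 38.2 and 156 TPM, and Cd34, Ly6a, Fcgr3 and Il7r, which are low on MEP, lay between 0 and 2.63 TPM. The 5 megakaryocyte markers had medians of 0.53 (replicate 1) and 0.49 TPM (replicate 2), summed to 12.8 and 16.8 TPM, and held Ppbp at 0 in both. The 5 T and NK cell markers ran from 1.10 to 23.0 TPM and summed to 49.4 and 37.9 TPM. The libraries differed more in markers of neutrophils, monocytes and B cells. The 10 neutrophil and monocyte markers summed to 1885 (replicate 1) and 6.39 TPM (replicate 2), with all 10 higher in replicate 1 and 7 of them at 0 in replicate 2 (Ngp, Lcn2, Ltf, Elane, Mpo, Ctsg and Itgam). The 7 B cell markers summed to 7.14 (replicate 1) and 126 TPM (replicate 2), all 7 higher in replicate 2 and Vpreb1 at 0 in replicate 1. The part of these cells in the members' differences between libraries was not tested. In such bulk samples, fewer cells of a type and less RNA per cell cannot be told apart.

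All 32 genes were detected at 1 TPM or more in both libraries, against 44.2% of 21461 protein-coding nuclear genes, and 28 of the 32 reached 10 TPM in both, against 24.7%. The 4 others were Shmt1 and Slc25a32, below 10 TPM in both libraries, and Mthfd2 and Dhodh, below 10 TPM in replicate 1 alone. The median of the 32 genes was 34.4 (replicate 1) and 38.3 TPM (replicate 2), where the median protein-coding nuclear gene stood at 0.38 and 0.36 TPM. Together they made up 0.424% and 0.443% of the TPM of protein-coding nuclear genes. Levels ran from 4.28 TPM (Shmt1 in replicate 2) to 276 TPM (Dut in replicate 2). The plot of members by role shows abundant and scarce genes side by side within the folate, purine branch and deoxynucleotide groups.

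**Figure D1:**
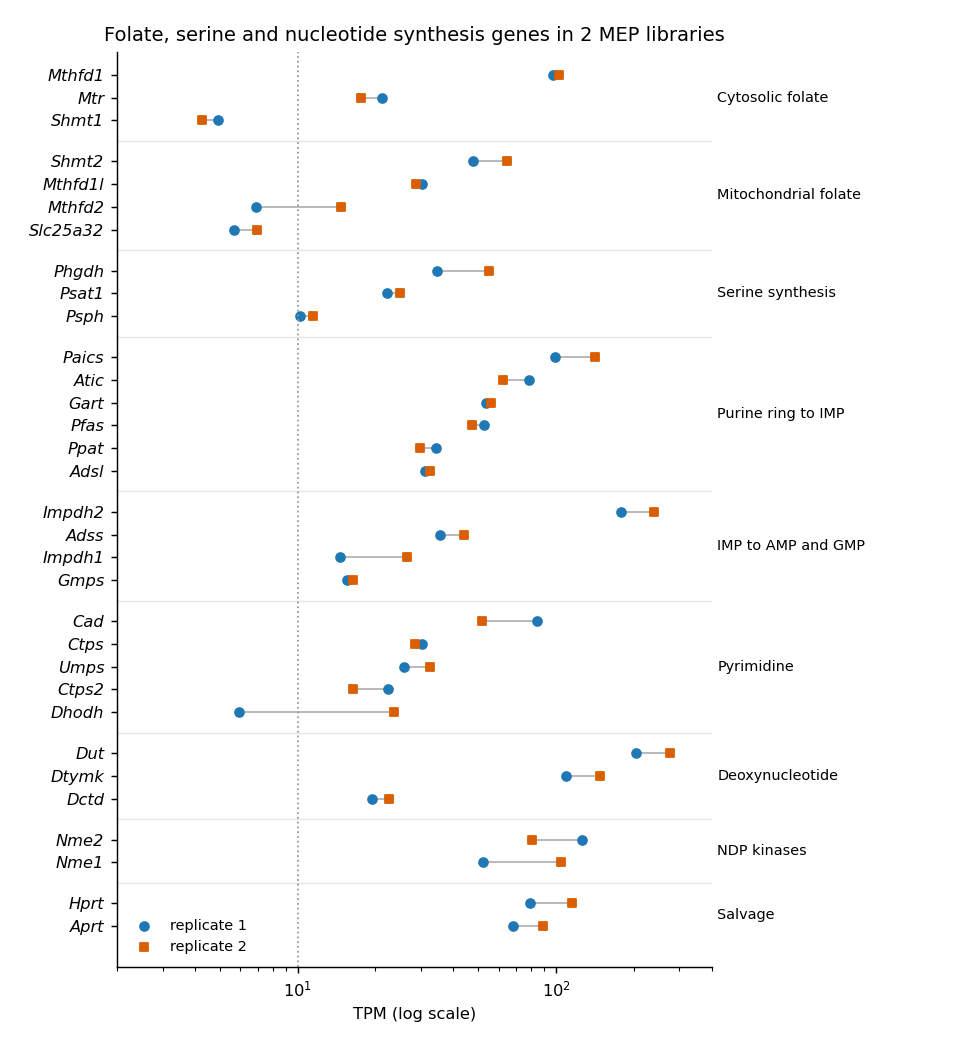
TPM on a log axis for the 32 genes, grouped by role, with a circle for replicate 1, a square for replicate 2 and a line joining them; the dotted line is at 10 TPM. Dut and Impdh2 are the highest genes in both libraries, Shmt1, Slc25a32 and, in replicate 1, Dhodh and Mthfd2 are left of the line, and the longest joining line is that of Dhodh.

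In the promoters, a search for 7 short motifs was made to see what the members share in sequence. RefSeq windows from 250 bases before to 50 bases after the start (GRCm38.p6) matched 29 of the 32 genes, and not Dhodh, Pfas and Slc25a32. The E-box CACGTG, the letters bound by MYC and USF proteins, was present on either strand in 5 of 29 members, against 8.09% of 27025 genes. The 5 were Paics, Atic, Impdh2, Dtymk and Nme1. Paics and Atic were the 2 highest genes of the purine ring group, and Impdh2 was the highest of the purine branch genes. Dut, the highest of all 32, had no match, nor had Mthfd1, Shmt2, Phgdh, Cad and Hprt, each the highest of its group. In windows from 150 bases before the start, 4 of 29 members held the E-box, against 6.19% of genes, and Paics was no longer among them. The NRF1 palindrome, a motif of 10 letters, was present in Shmt2 and Ctps, 2 of 29, against 1.07% of genes. CCAAT, the NF-Y motif, was found in 14 of 29, against 41.1% of genes. AGATAA, letters that erythroid factors such as GATA1 bind, was found in 5 of 29 (Ctps, Gmps, Hprt, Nme2 and Umps), against 12.7%. No member window held TGATGNAA (4.51% of genes), TTTCGCGC (0.374%) or TTTGGCGC (0.585%), letters searched for ATF4 and E2F. No 2 matches of different motifs overlapped in the member windows, and a match is a description of letters and not a measured site.

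Shown here are the windows of the 3 purine genes with the E-box and of Shmt2, the highest mitochondrial folate gene, each written 5′ to 3′ on the strand of its gene with the motif in capitals. The E-box begins 7 bases before the start in Atic, 203 in Paics and 110 in Impdh2, and the NRF1 palindrome begins 19 bases before the start in Shmt2.
Atic, chr1:71556906-71557205, plus strand: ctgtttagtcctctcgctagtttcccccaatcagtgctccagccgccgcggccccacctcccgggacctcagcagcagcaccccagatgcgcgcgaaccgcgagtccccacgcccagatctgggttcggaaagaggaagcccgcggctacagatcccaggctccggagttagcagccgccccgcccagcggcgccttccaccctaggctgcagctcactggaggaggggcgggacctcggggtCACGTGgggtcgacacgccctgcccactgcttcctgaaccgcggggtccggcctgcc
Paics, chr5:76951052-76951351, plus strand: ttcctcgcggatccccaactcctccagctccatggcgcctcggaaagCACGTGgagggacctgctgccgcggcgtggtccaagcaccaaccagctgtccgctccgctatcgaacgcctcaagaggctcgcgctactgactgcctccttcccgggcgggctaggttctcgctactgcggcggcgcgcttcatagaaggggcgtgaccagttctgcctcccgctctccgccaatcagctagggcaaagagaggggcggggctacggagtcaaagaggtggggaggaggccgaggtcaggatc
Impdh2, chr9:108560186-108560485, plus strand: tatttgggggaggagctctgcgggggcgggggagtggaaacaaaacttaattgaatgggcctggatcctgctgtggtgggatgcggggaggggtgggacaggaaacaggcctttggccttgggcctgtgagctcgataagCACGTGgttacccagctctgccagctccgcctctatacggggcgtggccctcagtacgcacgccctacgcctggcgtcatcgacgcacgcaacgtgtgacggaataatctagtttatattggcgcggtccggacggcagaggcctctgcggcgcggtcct
Shmt2, chr10:127522395-127522694, minus strand: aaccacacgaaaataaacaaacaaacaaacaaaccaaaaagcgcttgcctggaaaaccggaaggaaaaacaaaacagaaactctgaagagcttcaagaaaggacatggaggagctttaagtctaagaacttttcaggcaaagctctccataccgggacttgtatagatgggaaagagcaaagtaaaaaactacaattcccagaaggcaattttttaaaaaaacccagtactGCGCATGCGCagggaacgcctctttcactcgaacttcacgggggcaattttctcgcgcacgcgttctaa

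The factors and growth regulators named for these pathways were present at a wide range of levels. Myc, the factor that binds the E-box with MAX, was at 156 (replicate 1) and 196 TPM (replicate 2), and Atf4, the amino acid response factor, at 58.8 and 87.7 TPM. Mycn was the lowest of the 6 listed, at 1.37 and 2.22 TPM. The other 5 reached 10 TPM in both libraries, against 24.7% of protein-coding nuclear genes.

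Cytosolic and mitochondrial folate enzymes were compared next. Among the cytosolic genes, Mthfd1, which encodes the enzyme that interconverts folate-bound carbon units and can join formate to tetrahydrofolate, stood at 97.0 (replicate 1) and 103 TPM (replicate 2; mean 99.8 ± 4.0, SD, n = 2). Mtr, the methionine synthase that returns methyl-folate to tetrahydrofolate, was at 21.2 and 17.6 TPM. Shmt1, the cytosolic serine hydroxymethyltransferase, was at 4.90 and 4.28 TPM, the lowest mean of all 32 genes (4.59 ± 0.438, SD, n = 2). The order Mthfd1, Mtr, Shmt1 was the same in both libraries, and the steps between neighbours were larger than their spread.

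On the mitochondrial side, Shmt2, which makes glycine and a folate-bound carbon unit from serine, was at 47.8 and 64.7 TPM (56.3 ± 12, SD, n = 2). Mthfd1l, whose enzyme releases formate in mitochondria, was at 30.1 and 28.8 TPM (29.4 ± 0.983, SD, n = 2). Mthfd2, the mitochondrial methylene-folate dehydrogenase known from embryonic and tumour cells, was at 6.91 (replicate 1) and 14.7 TPM (replicate 2). It was therefore 2.13-fold higher in replicate 2, with a counting interval of 1.87 to 2.43. Slc25a32, the carrier that brings folate into mitochondria, was at 5.65 and 6.94 TPM. These genes also kept 1 order, with Shmt2 first and Slc25a32 last, but Mthfd2 (10.8 ± 5.52, SD, n = 2) and Slc25a32 (6.30 ± 0.912) did not differ beyond their spread.

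As groups, the compartments did not separate. The median of the mitochondrial genes was 18.5 (replicate 1) and 21.7 TPM (replicate 2). That of the cytosolic genes, which is the value of Mtr, was 21.2 and 17.6 TPM. The ratio of mitochondrial to cytosolic medians was 0.875 in replicate 1 and 1.23 in replicate 2, on opposite sides of 1, with a mean log2 ratio of 0.05 ± 0.35 (SD, n = 2). In sums, the mitochondrial genes had 90.5 TPM against 123 in replicate 1, and 115 against 125 in replicate 2, ratios of 0.735 and 0.924. With Mtr and Slc25a32 left out of the groups, the mean log2 ratio of medians was -0.83.

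Matched enzymes, in contrast, differed in opposite directions by step. For serine hydroxymethyltransferase the mitochondrial gene was the higher, with Shmt2 at 9.75 times Shmt1 in replicate 1 (counting interval 8.54 to 11.2) and 15.1 times in replicate 2 (13.7 to 16.7). For the enzymes that handle methylene-folate, formyl-folate and formate, the cytosolic gene was the higher. Mthfd1 was 3.22 times Mthfd1l in replicate 1 and 3.57 times in replicate 2. It was 14.0 times Mthfd2 in replicate 1 and 6.98 times in replicate 2. Each of these pairs kept its direction in both libraries, and the plot of ratios within libraries sets them side by side.

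**Figure D2:**
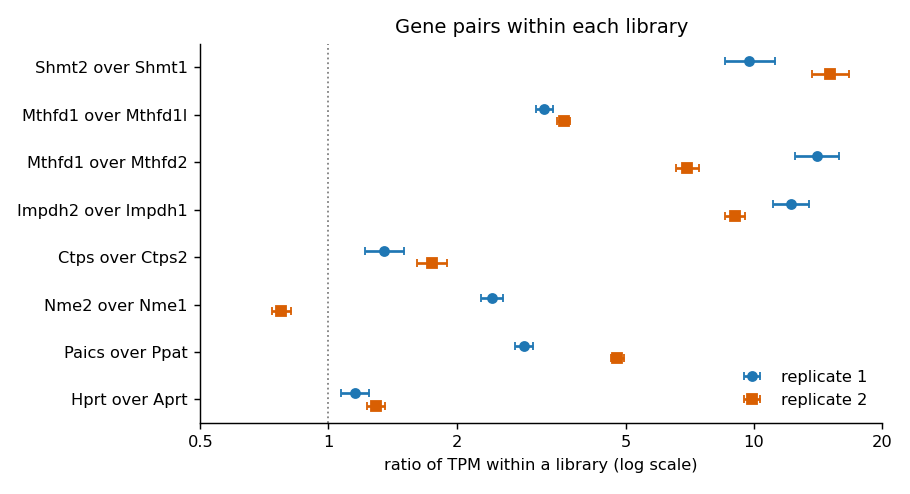
Ratio of the TPM of 2 genes within a library, on a log axis, for 8 pairs; circles are replicate 1, squares replicate 2, and bars are 95% counting intervals. 7 pairs lie right of the line at 1 in both libraries, and Nme2 over Nme1 changes side, from 2.42 in replicate 1 to 0.775 in replicate 2.

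Of the further cytosolic folate genes, 3 of 12 reached 10 TPM in both libraries, close to the 24.7% of protein-coding nuclear genes. Fpgs, which adds the glutamate tail that keeps folate in the cell, was at 39.0 and 45.3 TPM, and Tyms, the thymidylate synthase, at 37.9 and 43.6 TPM. Folr2, a folate receptor, was listed at 0 in both. Slc19a1, the reduced folate carrier, was at 31.9 TPM in both libraries and was named after its values were seen.

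Of the further mitochondrial folate genes, 3 of 11 reached 10 TPM in both libraries, again close to the background of 24.7%. Sfxn1, a mitochondrial serine carrier, was at 71.8 and 75.8 TPM, and Dld, a subunit shared by the glycine cleavage system and other dehydrogenase complexes, at 35.5 and 44.0 TPM. Gldc, the decarboxylase particular to glycine cleavage, was listed at 0 in both libraries, and Amt, its aminomethyltransferase, was at 0 and 0.14 TPM. Gcsh, the carrier protein of that system, was at 29.7 and 33.96 TPM. Aldh1l2, Dmgdh and Sardh, which oxidise formyl-folate, dimethylglycine and sarcosine in mitochondria, were also listed at 0 in both. Gldc, Amt, Gcsh and the genes at 0 were named after their values were seen. In the methionine cycle, 3 of 6 genes reached 10 TPM in both libraries, against 24.7%. Mat2a, which makes S-adenosylmethionine, was at 118 and 152 TPM and Ahcy, which clears S-adenosylhomocysteine, at 79.1 and 90.5 TPM, while Bhmt, the betaine-dependent route to methionine, was listed at 0 in both.

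In gene TPM, the 3 serine synthesis genes ranked in the order of the pathway. Phgdh, which oxidises phosphoglycerate at the entry of the route, was at 34.6 (replicate 1) and 55.2 TPM (replicate 2; 44.9 ± 14.6, SD, n = 2). Psat1, the aminotransferase that follows, was at 22.2 and 24.8 TPM (23.5 ± 1.86). Psph, the phosphatase that releases serine, was at 10.2 and 11.4 TPM (10.8 ± 0.877). Phgdh was 3.39 times Psph in replicate 1 and 4.83 times in replicate 2. By the transcript of each gene with the most counts, the order did not hold in replicate 1. There Psat1 was at 6.34 TPM and Psph at 9.70 TPM, against 9.75 and 4.18 TPM in replicate 2. Phgdh and Psph share sequence with other genes. The expected counts of Phgdh were fractional (1277.23 and 3134.97), and the sharing limits how exactly its reads can be assigned. A processed pseudogene, Gm7901, matched Phgdh at 98.7% over 1597 bases and was at 0.55 and 0.58 TPM. The most counted Psph transcript and Cct6a, a chaperonin subunit gene at 85.1 and 148 TPM, had 452 identical bases. The expected counts of Psph (317 and 363) and Cct6a (2736 and 8185) were whole, so they show no reads split between these 2 genes.

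The 6 genes that build the purine ring up to IMP were all above 10 TPM in either library, and their median was 53.0 TPM in replicate 1 and 51.8 in replicate 2. Paics, whose enzyme carries out carboxylation and the joining of aspartate, was highest at 98.8 (replicate 1) and 142 TPM (replicate 2; 120 ± 30.5, SD, n = 2). Atic, which adds the last folate-borne carbon and closes the ring to IMP, was at 78.4 and 62.1 TPM. Gart, a trifunctional enzyme that uses formyl-folate, was at 53.6 and 56.2 TPM, and Pfas, the amidotransferase that acts between the Gart steps, at 52.4 and 47.4 TPM. Ppat, the amidotransferase that opens the route, was at 34.3 and 29.8 TPM and Adsl, the lyase that acts in ring assembly and again in AMP formation, at 31.1 and 32.5 TPM. The order in gene TPM was the same in both libraries except that Ppat and Adsl, whose values overlapped, changed places. By the transcript of each gene with the most counts, Pfas was the lowest in both libraries, at 15.3 and 17.1 TPM. Adsl was next at 18.9 and 20.6 TPM.

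Paics and Ppat are neighbours that start close together on opposite strands, Ppat at chr5:76913249-76951578 on the minus strand and Paics at chr5:76951307-76967509 on the plus strand (mm10). Their 5′ ends overlap. The most counted Paics transcript was identical to a Ppat transcript over 231 bases. The most counted Ppat transcript was identical to a Paics transcript over 272 bases. Paics was 2.88 times Ppat in replicate 1 (counting interval 2.75 to 3.02) and 4.77 times in replicate 2 (4.60 to 4.95). The expected counts of Paics (4329 in replicate 1 and 10280 in replicate 2) and Ppat (2767 and 4237) were whole, so they show no reads split between these 2 genes. Use of strand in the counting is unknown, and the assignment of reads from the overlap was not tested.

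At the branch from IMP, Impdh2 stood far above its paralog. Impdh2 and Impdh1 encode IMP dehydrogenases, which commit IMP to GMP. Impdh2 was at 179 (replicate 1) and 239 TPM (replicate 2; 209 ± 42.7, SD, n = 2), and Impdh1 at 14.6 and 26.5 TPM. The ratio was 12.2 in replicate 1 (counting interval 11.1 to 13.5) and 9.01 in replicate 2 (8.53 to 9.51). A processed pseudogene, Impdh2-ps, matched Impdh2 at 99.7% over 1545 bases and was at 4.43 and 3.18 TPM. Gmps, which completes GMP, was at 15.5 and 16.3 TPM and Adss, the adenylosuccinate synthase of the AMP branch, at 35.7 and 44.1 TPM. Gmps (15.9 ± 0.559, SD, n = 2) and Impdh1 (20.6 ± 8.44) changed places between libraries.

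The pyrimidine genes were lower as a group. Cad, the trifunctional enzyme of the opening steps, was at 84.5 (replicate 1) and 51.5 TPM (replicate 2; 68.0 ± 23.4, SD, n = 2). Dhodh, the mitochondrial dehydrogenase of the route, was at 5.95 and 23.6 TPM, the largest fold between libraries among the 32 genes in gene TPM. Umps, which completes UMP, was at 25.9 and 32.6 TPM. Cad was highest in both libraries and Dhodh was lowest in replicate 1, above only Ctps2 in replicate 2. The CTP synthase genes lay closer together than the IMP dehydrogenase pair. Ctps was at 30.3 and 28.5 TPM and Ctps2 at 22.4 and 16.3 TPM, a ratio of 1.35 in replicate 1 (1.22 to 1.502) and 1.75 in replicate 2 (1.62 to 1.90).

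Set against each other, the purine genes were above the pyrimidine genes in both libraries. The 10 purine genes had medians of 44.0 (replicate 1) and 45.7 TPM (replicate 2), and the 5 pyrimidine genes 25.9 and 28.5 TPM. The ratio of medians was 1.70 and 1.60, a mean log2 ratio of 0.72 ± 0.06 (SD, n = 2). The ranges overlapped: purine genes ran from 14.6 to 239 TPM and pyrimidine genes from 5.95 to 84.5 TPM. Restricted to the steps up to IMP and up to UMP, the ratio of medians was 2.05 and 1.59. Measured by the 1 transcript of each gene with the most counts, a choice made after seeing the data, the mean log2 ratio was 0.39.

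In the deoxynucleotide group, Dut was the highest of all 32 genes. Dut encodes the dUTPase that keeps uracil out of DNA and supplies dUMP for thymidylate, and it was at 205 (replicate 1) and 276 TPM (replicate 2; 240 ± 50.5, SD, n = 2). Dut-202, a transcript of 1020 bases, made up 84.4% and 85.9% of its TPM, and Dut-201, of 1950 bases, 15.6% and 14.0%. Dtymk, the thymidylate kinase, was at 109 and 148 TPM. Dctd, the deaminase that makes dUMP from dCMP, was at 19.5 and 22.7 TPM. All 3 were higher in replicate 2 in TPM, though Dctd was lower there in CPM, counts per 1000000 counts scaled with TMM factors (26.2 and 23.7). Their order was the same in both libraries, with gaps beyond their spread.

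The ribonucleotide reductase and deoxynucleoside kinase genes gave 6 of 8 at 10 TPM or more in both libraries, against 24.7% of protein-coding nuclear genes. Tk1, the cytosolic thymidine kinase of dividing cells, was at 79.4 and 125 TPM, and Rrm2, the reductase subunit of S phase, at 78.1 and 115 TPM. Rrm2b, the reductase subunit used outside S phase, was lowest at 2.07 and 5.58 TPM. Rrm1, the large subunit, was at 89.90 and 89.98 TPM and was named after its values were seen. The forms of dividing cells were thus the higher: Rrm2 was 37.7 and 20.6 times Rrm2b, and Tk1 was 21.3 and 14.2 times Tk2, the mitochondrial kinase, also named after its values were seen. The 6 proliferation markers summed to 947 (replicate 1) and 1109 TPM (replicate 2).

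The salvage genes were both abundant. Hprt, which recovers hypoxanthine and guanine, was at 78.9 and 115 TPM (97.2 ± 25.8, SD, n = 2) and Aprt, which recovers adenine, at 68.3 and 89.04 TPM (78.7 ± 14.7). Hprt was 1.16 times Aprt in replicate 1 and 1.30 times in replicate 2, and the gap between their means was smaller than the spread of Hprt. Among genes that make phosphoribosyl pyrophosphate and interconvert purines, 8 of 13 reached 10 TPM in both libraries, against 24.7% of protein-coding nuclear genes. Prpsap1, a partner of the phosphoribosyl pyrophosphate synthases, was at 39.4 and 42.2 TPM. Xdh, which degrades purines to uric acid, was lowest at 0.70 and 0.20 TPM. Pnp was listed but not matched by symbol.

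Pyrimidine salvage and breakdown divided in a similar way. There 8 of 12 genes reached 10 TPM in both libraries, against the same 24.7%. Uck2, a uridine-cytidine kinase, was at 103 and 87.8 TPM and Uckl1, a related kinase gene, at 47.2 and 48.0 TPM. Upp1, Tymp and Dpyd, which break pyrimidine nucleosides and bases down, were listed at 0 in both libraries. Over all lists of further genes, 68 of 69 were matched, 36 reached 10 TPM in both libraries (background 24.7%) and 9 were listed at 0 in both.

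**Figure D3:**
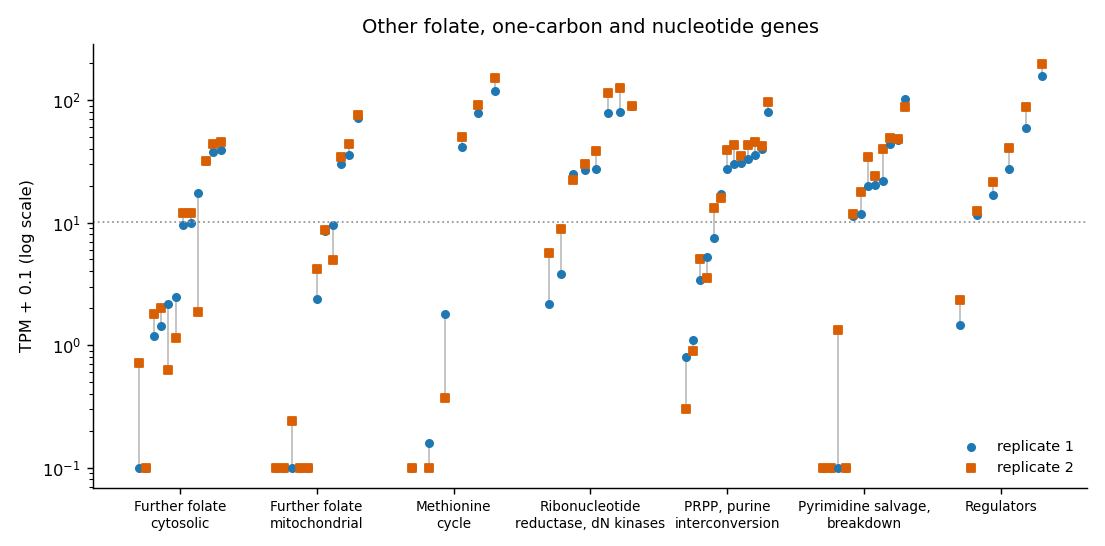
TPM plus 0.1 on a log axis for 68 further genes in 7 lists, each gene a vertical line joining replicate 1 (circle) and replicate 2 (square); the dotted line marks 10 TPM. Within the folate, methionine cycle and pyrimidine lists, genes above the line stand beside genes at the bottom of the axis, which are listed at 0.

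The nucleoside diphosphate kinases changed order between libraries. Nme1 and Nme2 encode the subunits of the enzyme that turns nucleoside diphosphates into triphosphates, and they lie in tandem on the minus strand, Nme1 at chr11:93956979-93968521 and Nme2 at chr11:93949814-93956259 (mm10). Nme1 was at 52.2 (replicate 1) and 104 TPM (replicate 2), and Nme2 at 126 and 80.9 TPM. Nme2 was thus 2.42 times Nme1 in replicate 1 (counting interval 2.28 to 2.57) and 0.775 times in replicate 2 (0.737 to 0.815). A readthrough gene that joins both, Gm20390 (chr11:93949819-93968293, minus strand), was at 0 TPM with 0 expected counts in replicate 1 and at 69.7 TPM with 2222 expected counts in replicate 2. The authors' credibility interval for it reached 3.46 TPM in replicate 1 and ran from 60.3 to 74.1 TPM in replicate 2. In replicate 1, 3 counts would be 0.160 TPM. That limit covers counting error only and not the division of shared reads among Nme1, Nme2 and Gm20390, so it does not bound the level of Gm20390.

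The sequences bear on how these reads can be assigned. The readthrough transcript, Gm20390-201, has 991 bases in 8 exons, of which 418 lie in Nme1 exons, 573 in Nme2 exons and 0 elsewhere. All of its bases are thus shared with exons of Nme1 or Nme2. Reads across its join of Nme1 exons to Nme2 exons were not examined. The coding sequences of Nme1-203 and Nme2-202, both 456 bases, are identical at 366 positions (80.3%), with a longest identical run of 29 bases. A stretch near their start, coding positions 13 to 102, is shown 5′ to 3′ with its 7 mismatches in capitals.
Nme1: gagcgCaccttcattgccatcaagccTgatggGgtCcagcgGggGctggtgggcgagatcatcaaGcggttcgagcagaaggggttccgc
Nme2: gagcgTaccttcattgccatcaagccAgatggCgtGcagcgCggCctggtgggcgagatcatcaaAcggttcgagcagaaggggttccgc

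Summed over the 3 genes, the locus was at 179 (replicate 1) and 255 TPM (replicate 2), a ratio of 1.43. In CPM with TMM factors it was 187 and 208, a ratio of 1.12. Gm20390 held 27.4% of the locus TPM and 19.3% of its counts in replicate 2. By transcript, Nme1-203 was nearly level at 52.2 and 57.9 TPM, Nme1-201, of 493 bases, was at 0 and 42.6 TPM, and Nme2-202 at 117 and 61.5 TPM. The part of read assignment between the 3 genes in the changed order was not tested.

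Few members differed much between the 2 libraries, as was so of genes with a mean of at least 10 TPM. On the scale of log2(TPM + 1), which understates changes of low genes, 1 of 32 members differed by 2-fold or more, against 11.3% of 11438 genes with a mean of at least 1 TPM (6.92% higher and 4.35% lower in replicate 2) and 5.18% of genes with a mean of at least 10 TPM. That member was Dhodh, 3.97-fold higher in replicate 2 (counting interval 3.51 to 4.51). Mthfd2 and Nme1 stayed just under that threshold on this scale, both with log2 differences of 0.99. By any amount, 22 members were higher in replicate 2, against 66.1% of genes, and 10 were lower. The median log2 difference was 0.18 for members and 0.18 for all genes, with an SD of 0.51 across members and 0.80 across genes. Across genes with a mean of at least 10 TPM the SD was 0.73.

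In CPM the SD of the log2 differences was 0.37 across members, beside 0.43 across genes with a mean of at least 10 TPM. Single genes moved either way. With TMM factors, 0 of 32 members passed 2-fold, against 6.32% of genes, and 14 were higher and 18 lower in replicate 2, against 50.4% of genes higher. The member median on this scale was -0.067, beside 0.0028 for all genes. Dhodh was at 11.4 and 21.4 CPM, a ratio of 1.88, Mthfd2 at 10.6 and 19.7, a ratio of 1.86, and Nme1 at 125 and 132, a ratio of 1.06. Psph, at 11.4 and 6.55 CPM, was lower in replicate 2 on this scale and not in gene TPM, and the log2 difference of Nme2 was -0.77 in CPM and -0.64 in TPM. By the most counted transcript of each gene, 2 of 32 members passed 2-fold in either direction, against 16.4% of genes: Impdh1 at 4.11 and 10.3 TPM and Psph at 9.70 and 4.18 TPM. The SD of the log2 differences of the 6 purine ring genes was 0.12 on that scale, beside 0.30 in gene TPM. Other groups went either way. The SD was also smaller on that scale for the pyrimidine (0.39 beside 1.00) and nucleoside diphosphate kinase genes. It was larger for serine synthesis (0.90 beside 0.29), deoxynucleotide, purine branch and both sets of folate genes, and equal for salvage. Across all 32 members it was 0.46, beside 0.51 in gene TPM.

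**Figure D4:**
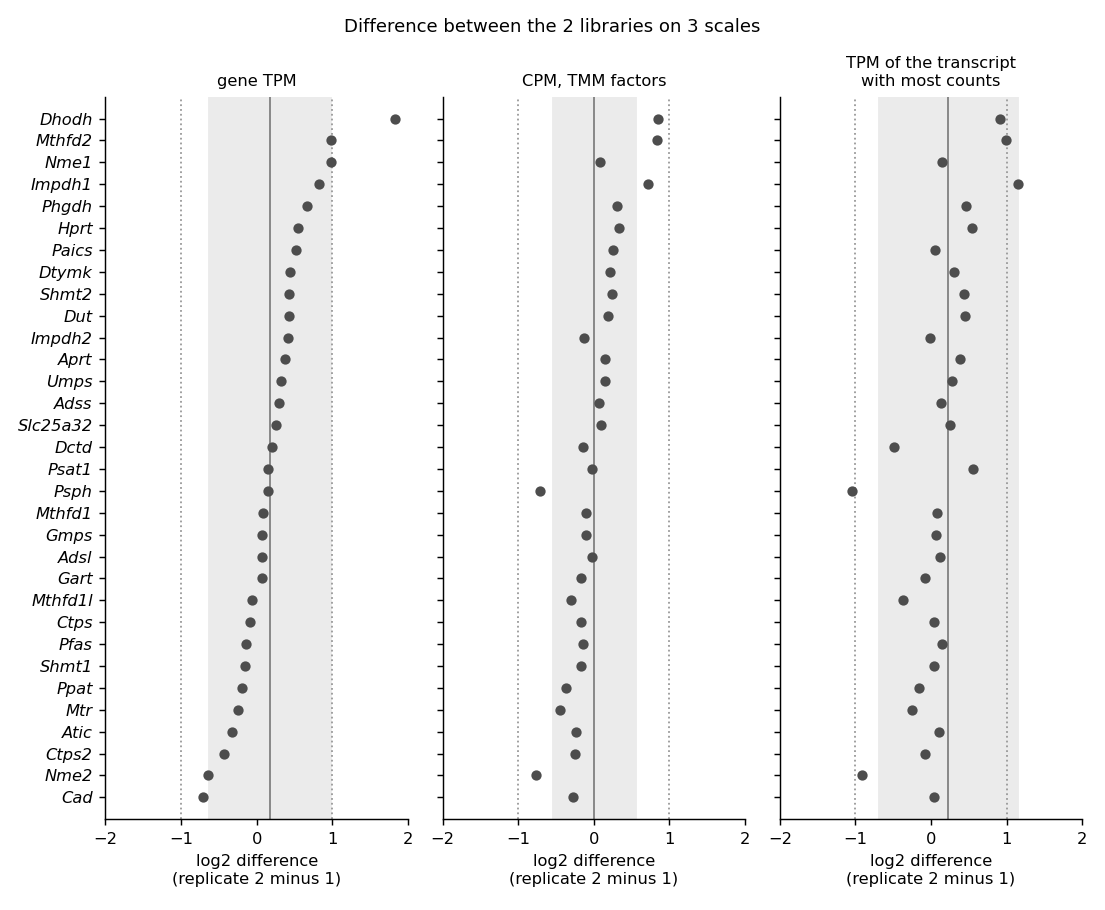
Log2 difference of replicate 2 minus replicate 1 for the 32 genes on 3 scales, ordered by gene TPM; the solid line and grey band are the median and 1 SD either side over 11438 genes, and dotted lines mark 2-fold. Dhodh lies past 2-fold in gene TPM, no gene does in CPM, and Impdh1 and Psph do in the TPM of the most counted transcript.

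The gene values of several members rested on short or non-coding transcripts that took few counts. For Dhodh (chr8:109591343-109608673, minus strand), the retained-intron transcript Dhodh-202, of 490 bases, was at 0 (replicate 1) and 9.86 TPM (replicate 2), where it made up 41.7% of the gene's TPM from 124 expected counts. The most counted Dhodh transcript, of 2318 bases and not named in the annotation used, was at 4.38 and 9.08 TPM. For Cad, Cad-201, the transcript of 7137 bases that took 88.7% and 97.1% of the gene's counts, was at 36.7 and 37.6 TPM. Unnamed Cad transcripts made up 56.6% of its TPM in replicate 1 and 26.9% in replicate 2, which is where its gene values differed. Impdh2 behaved likewise: Impdh2-201 was at 158 and 156 TPM, and Impdh2-206, a retained-intron transcript of 274 bases, at 0 and 38.0 TPM.

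Among the ring genes, Paics-203 was at 86.4 and 89.9 TPM and Atic-201 at 53.9 and 58.0 TPM, closer together than the gene values. Retained-intron and other non-coding types held 66.9% and 60.5% of the TPM of Pfas, and 48.7% and 43.7% of its counts. The retained-intron transcript Psat1-204 made up 42.6% and 44.7% of the TPM of Psat1. The shares printed for Pfas and Psat1 were thus similar in both libraries.

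Of the 24 members with several transcripts and at least 5 TPM, 19 had 1 and the same leading transcript by TPM share in each library. The leading transcript differed for 26.3% of 5567 such genes. The 5 that differed were Psph, Pfas, Impdh1, Dhodh and Dtymk. In Dtymk, the leading transcripts were near each other, Dtymk-201 at 50.2 and 55.9 TPM and Dtymk-202 at 45.0 and 56.0 TPM. In Psph, Psph-201 was at 9.70 and 4.18 TPM, and Psph-202, of 616 bases, at 0 and 6.97 TPM. 7 members, Mthfd1 and Shmt2 among them, had 1 annotated transcript, so their values do not depend on this division.

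**Figure D5:**
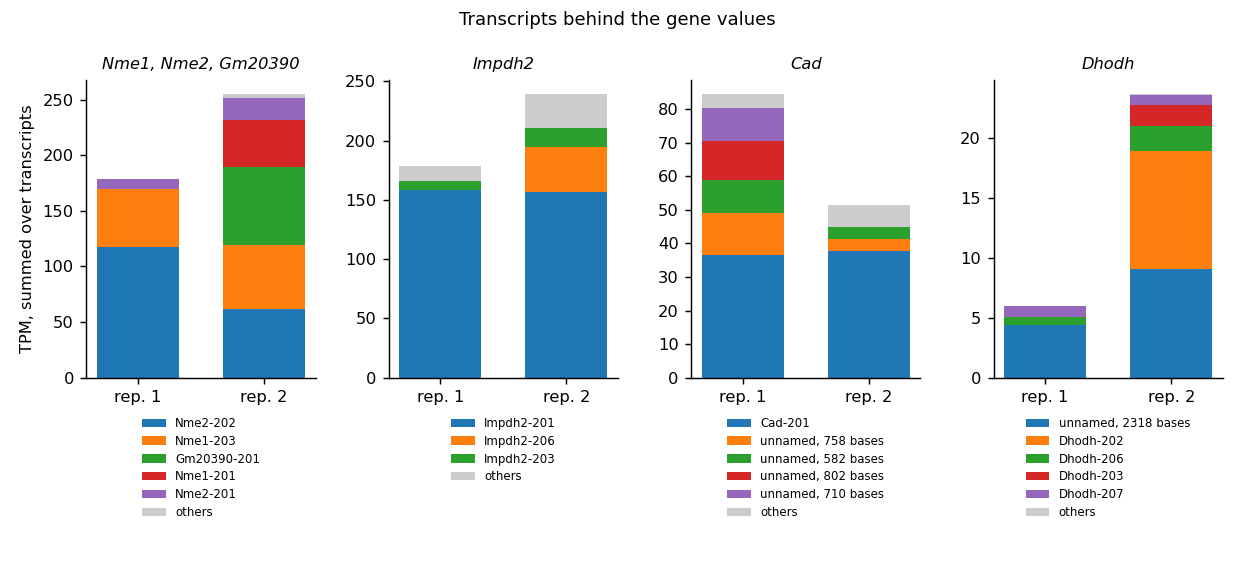
TPM of each transcript, stacked to the sum, in replicate 1 and replicate 2 for the Nme1, Nme2 and Gm20390 locus, Impdh2, Cad and Dhodh. The lowest bar segments of Impdh2 and Cad are level between libraries (158 and 156 TPM, 36.7 and 37.6 TPM), while the upper segments differ.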

How the data were processed

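Total RNA was measured in 2 libraries of 100 MEP each. Per the deposited README, the authors quantified mm10 with GENCODE annotation M4. The sources used here name no aligner or quantifier version, and column names follow RSEM. Expected counts deposited by the authors are estimated reads per gene or transcript, rounded here for scaling. The authors' TPM corrects for effective length. FPKM values deposited by the authors were used only for an alternative transcript share. Transcript shares are the authors' percent of gene TPM. The deposited signal columns are credibility bounds of TPM, which held the TPM itself for 25 members in replicate 1 and 23 in replicate 2.

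Names, types and coordinates came from GENCODE M21 (GRCm38) by gene identifier without version. TMM factors (edgeR 4.0.16) and size factors (DESeq2 1.42.0) in R 4.3.3 were used for scaling only. Counting intervals are exact Clopper-Pearson at 95%; neither they nor the limit of 3 counts cover more than counting error. Near copies were sought with blastn 2.17.0 for 31 members (Dhodh was not searched), at 95% identity over 200 bases, and found for 11. The scripts used Python 3.11.15 with pandas 2.3.3, scipy 1.17.1, numpy 2.4.6 and matplotlib 3.10.9. Only the log2 difference between libraries and its fold threshold were tested on simulated data, which held sampling noise alone. The libraries differed by more than sampling noise (chi-square per degree of freedom 62.8 over 11453 genes). No p-values were computed, and differences between the replicates can be technical. All 32 members were named, with the 2 highest and the lowest of each further list. A gene taken by this rule is not reported here. The members and lists were chosen with earlier results of these data known.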

Additional observations from a re-analysis of the deposited data

How the results depend on the processing

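The direction of the purine to pyrimidine ratio and of the Shmt2, Impdh2 and Ctps pairs held in every alternative run for them, and the main transcript count stayed within 1.5 times. The mean log2 ratio of purine to pyrimidine medians (0.72) became 1.00 with arithmetic means and 0.85 for steps to IMP against steps to UMP. It was 0.39 by the most counted transcript, an alternative chosen after seeing the data. By that transcript the log2 ratio of Impdh2 to Impdh1 was 4.60 against 3.39, and that of Ctps to Ctps2 1.32 against 0.62. The mitochondrial to cytosolic folate log2 ratio (0.05) turned to -0.28 with sums, -0.83 without Mtr and Slc25a32 and -0.18 by the most counted transcript, and ran from -0.19 to 0.30 with 1 library left out. The Nme2 to Nme1 log2 ratio ran from -0.37 to 1.28 with 1 library left out. The median level of members (35.9 TPM) was 84.1 when rescaled over protein-coding nuclear genes and 58.1 as an arithmetic mean. The count past 2-fold (1) was 2 with a pseudocount of 0.1, 0 with TMM factors, 0 with DESeq2 size factors, 2 by the most counted transcript and 7 at 1.5-fold. The median log2 difference (0.18) was -0.067 with TMM factors and -0.066 with DESeq2 size factors. The cause was not tested. No paired analysis was possible because both libraries belong to 1 group. The smallest member count was 242 expected counts, and 2 libraries of 1 group limit every spread given.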
